A study of Sus scrofa with 59 samples.

Results

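Solute carriers are membrane proteins that move sugars, amino acids, nucleotides, metals, ions and organic acids across the plasma membrane and the membranes of organelles. In skeletal muscle they bring in glucose, fatty acids, creatine and amino acids, export lactate, and, in the SLC25 family of the inner mitochondrial membrane, exchange ADP for ATP and carry phosphate, aspartate, glutamate and malate. All genes whose array symbol begins with SLC and a digit were taken, apart from SLC25A1, SLC25A20 and SLC2A3, and the probe set with the highest mean stood for each gene. This gave 117 genes from 37 families, of 6765 genes on the array, and 70 of the 117 passed a filter on dim signals. 3 of the 117, SLC2A4RG, SLC9A3R1 and SLC9A3R2, encode a transcriptional regulator and scaffold proteins named after a transporter and are not transporters themselves.

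Muscle RNA of 59 crossbred pigs (LD/LW x Duroc), all 170 days old, was hybridised to 1 Affymetrix porcine array per pig. The pigs were raised on a single farm with free access to feed, and the longissimus dorsi, the long back muscle, was sampled at slaughter and snap-frozen. The study asked how expression shortly after death relates to carcass and meat traits, but no trait value, sex or array batch per pig was used here, so all pigs formed 1 group and relations within that group were tested. The slow fibre and fast fibre contractile genes averaged 13.18 and 14.28 log2, near the top of the deposited range of 2.39 to 15.04. Array values are log2 signals, and signals of different probe sets do not rank transcripts by abundance. The correlation between any pair of arrays lay between 0.968 and 0.995, and the p-values measure the spread between these pigs only.

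A gene list score was the mean of the list's genes, each standardised over the pigs, rescaled to an SD of 1. No solute carrier was in any list. A gene was said to follow a score where its slope in log2 per SD of the score had an adjusted p under 0.05 in limma, a linear model fitted across all tested probe sets, with Benjamini-Hochberg adjustment over all of them. The slopes describe genes that varied together between pigs. In whole muscle, fewer cells of a type and less RNA per cell cannot be told apart.

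Genes of inner mitochondrial membrane carriers gave the brightest solute carrier signals. SLC25A4, the ADP/ATP carrier of adult muscle, had the highest mean signal, 13.88 ± 0.11 log2 (SD, n = 59). SLC25A3, which brings phosphate into the mitochondrion for ATP synthesis, averaged 12.62 ± 0.17, and SLC25A6, another ADP/ATP carrier, 11.40 ± 0.23. SLC25A12, the calcium-regulated aspartate/glutamate carrier, averaged 11.11 ± 0.28. SLC25A11, which exchanges oxoglutarate for malate and works with it in the malate-aspartate shuttle, averaged 9.86 ± 0.19. SLC25A24, the calcium-regulated carrier of ATP-magnesium and phosphate, averaged 9.99 ± 0.44, and SLC25A21, a carrier of oxodicarboxylates, 9.91 ± 0.49. Of the 12 brightest members, these 7 belonged to SLC25, which held 19 of the 117 members.

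The other 5 of the 12 were of mixed function. SLC35F5, of the nucleotide sugar transporter family, averaged 11.31 ± 0.25 log2 (SD, n = 59), and SLC37A4, which carries glucose 6-phosphate into the endoplasmic reticulum, 10.84 ± 0.38. SLC6A8, the creatine transporter, averaged 9.94 ± 0.17. SLC39A1, a zinc importer, averaged 9.67 and SLC35B1, an ATP/ADP exchanger of the endoplasmic reticulum, 9.62 ± 0.13. SLC2A4, the insulin-responsive glucose transporter, averaged 7.29 ± 0.17.

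The share of genes past the filter differed by family. Among the SLC25 genes 16 of 19 passed the filter, and so did all 11 genes of SLC33 and SLC35. These 2 families include transporters of the endoplasmic reticulum and Golgi. Of 13 metal transporters 11 passed. Among amino acid transporters 8 of 19 passed, among ion transporters 5 of 12, and among peptide transporters 0 of 2. Over the 117 members 59.8% passed, against 72.8% of all genes on the array. The 47 members under the filter were not tested.

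**Figure D1:**
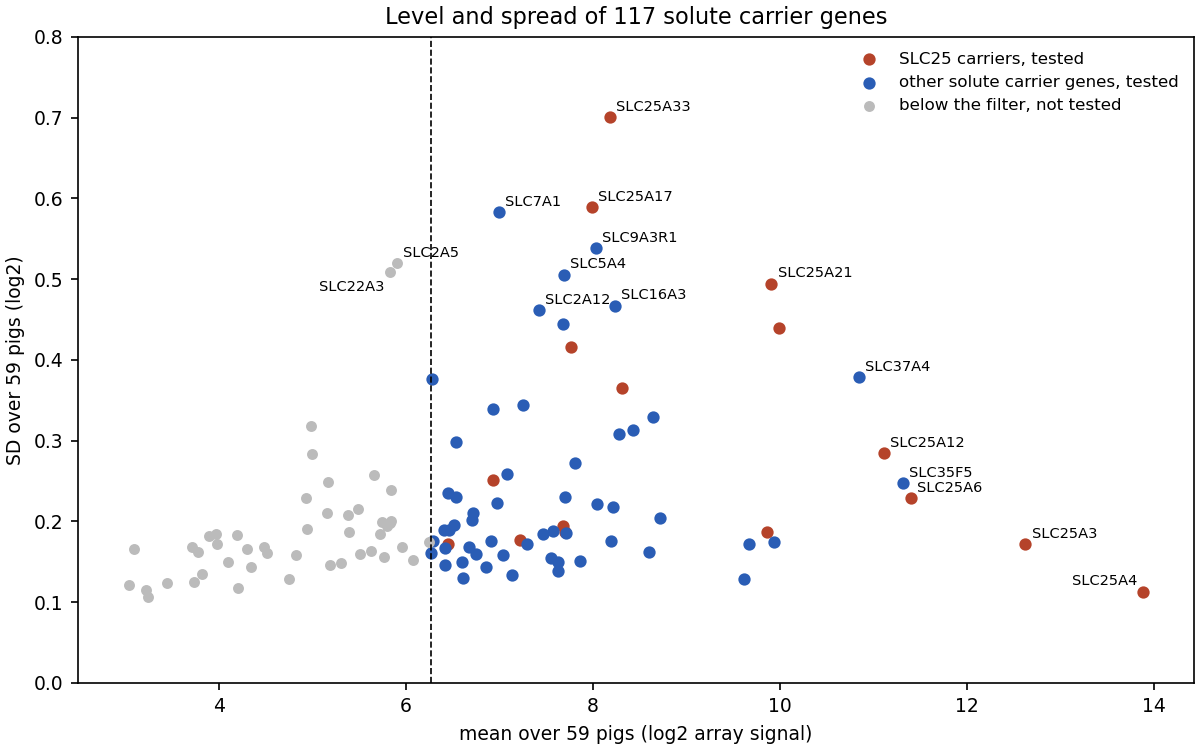
Mean (x axis, log2 array signal) against SD (y axis, log2) over 59 pigs for each of the 117 genes. Red points are SLC25 carriers and blue points are other solute carriers past the filter, whose limit (6.27 log2) is the dashed line. Grey points lie below it. SLC25A4 stands at the right with a mean of 13.88 and SLC25A33 at the top with an SD of 0.70.

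Most solute carriers varied little between pigs. The median SD of the 70 tested members was 0.198 log2, against 0.197 for all genes past the filter, and 5 members reached an SD of 0.5 (7.14%, against 4.40% of all genes).

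SLC25A33, a mitochondrial carrier of pyrimidine nucleotides, varied most. Its signal had a lowest value of 6.98 log2, a median of 8.04 and a highest value of 10.14, in pig 37. SLC25A17, the SLC25 member of the peroxisomal membrane, ran from 6.30 to 9.04 with a median of 8.05. Its SD was 0.59, and it had no slope past the threshold on any of the 11 scores. Its SEs were large, as in a slope of -0.10 ± 0.07 log2 per SD of the adipocyte score. Relations of a size called in other members could have been missed. SLC7A1, an importer of arginine and lysine, ran from 5.64 to 8.56 with a median of 6.96, the highest value being that of pig 72. SLC9A3R1, a scaffold for membrane transporters, ran from 7.22 to 9.50 with a median of 7.97. SLC5A4, a sodium-linked sugar transporter family member that acts as a glucose sensor in humans, had a tail of low pigs. It had a lowest value of 5.70, a median of 7.85 and a highest of 8.28.

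The next of the 12 most variable members had SDs between 0.38 and 0.49 log2. SLC25A21 ran from 8.61 to 10.79 with a median of 9.91. SLC16A3, the lactate exporter of glycolytic fibres, ran from 7.09 to 9.36 with a median of 8.28. Both spreads cover more than a 4-fold range of signal between the lowest and highest pig. SLC2A12, a glucose transporter, ran from 6.44 to 8.19 with a median of 7.48, and SLC3A1, the heavy chain of a cystine and basic amino acid transporter, from 6.52 to 8.59 with a median of 7.66. SLC25A24 ran from 8.85 to 11.04 with a median of 10.06. SLC25A5, the ADP/ATP carrier of proliferating cells, ran from 6.98 to 8.96 with a median of 7.68, and SLC37A4 from 9.95 to 11.43 with a median of 10.85. Below the filter, SLC22A3, a transporter of organic cations, reached 8.32 in pig 72.

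**Figure D2:**
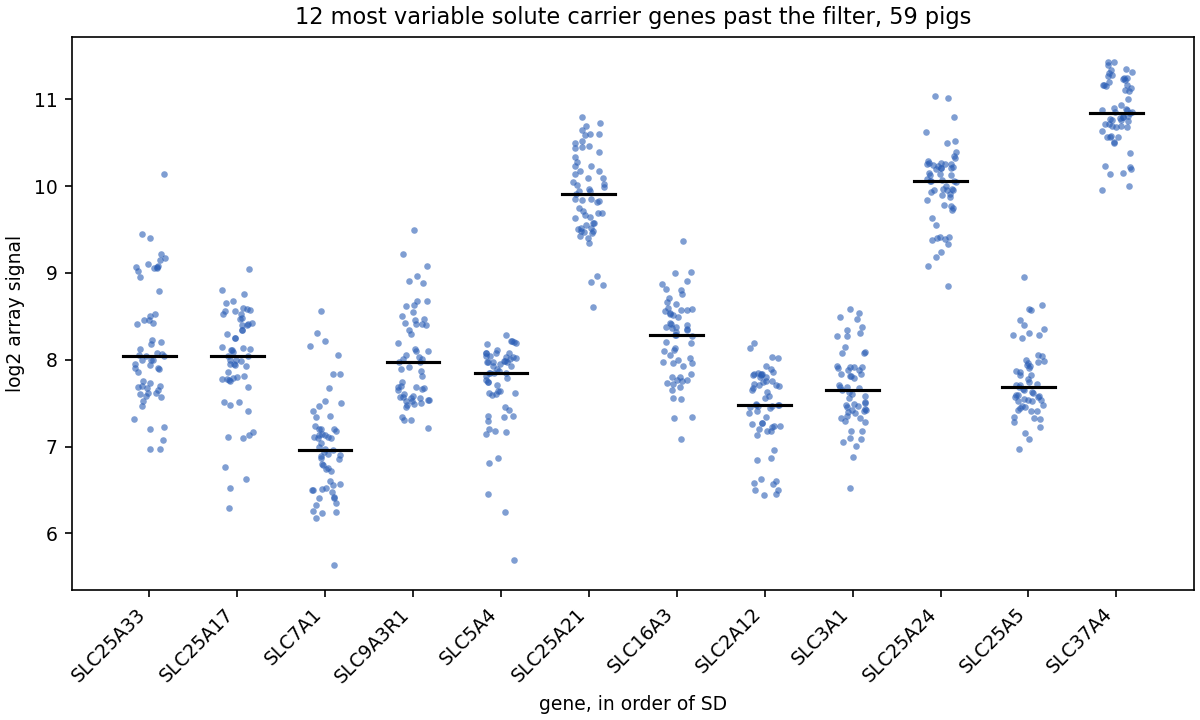
Log2 array signal (y axis) of the 12 most variable tested solute carriers (x axis, ordered by SD). Each point is 1 of 59 pigs and the black line is the median. SLC5A4 and SLC25A21 have a few low pigs, and SLC25A33 has a single pig at 10.14.

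A small set of solute carriers, with mitochondrial carriers at its head, varied together with genes of oxidative phosphorylation. The oxidative phosphorylation score rested on 37 of 55 listed genes, as the others were not measured. Of the 70 members, 12 were higher and 4 lower with the oxidative phosphorylation score, together 22.9%. Of all genes tested 12.8% were called, 9.26% higher and 3.5% lower. Among SLC25 carriers 5 of 16 were higher and 1 lower. SLC25A12 had a lowest value of 9.88 log2, a median of 11.14 and a highest value of 11.62, and its slope was 0.20 ± 0.03 log2 per SD of the score (SE, limma adjusted p = 2.86e-08). SLC25A11 ran from 9.37 to 10.48 with a median of 9.86, and its slope was 0.14 ± 0.02 (limma adjusted p = 1.11e-09). SLC25A4 ran from 13.59 to 14.12 with a median of 13.89, and its slope was 0.08 ± 0.01 (limma adjusted p = 2.46e-09). Both shuttle carriers and the muscle ADP/ATP carrier were higher in pigs with higher respiratory chain signals. SLC25A3 had a slope of 0.07 ± 0.02 (limma adjusted p = 0.0104). SLC25A46, an outer membrane protein that shapes mitochondria, had a slope of 0.11 ± 0.03 (limma adjusted p = 0.0133).

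SLC25A24 moved the other way. It fell by 0.22 ± 0.05 log2 per SD of the oxidative phosphorylation score (limma adjusted p = 0.000937).

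Importers outside the mitochondrion also followed this score. SLC27A1, a fatty acid transport protein, ran from 6.005 to 7.24 log2 with a median of 6.73, and its slope was 0.11 ± 0.02 (limma adjusted p = 0.000209). SLC11A2, a transporter of iron and other divalent metals, ran from 5.98 to 6.85 with a median of 6.47, and its slope was 0.11 ± 0.02 (limma adjusted p = 0.000222). The remaining higher members were the copper importer SLC31A1, the magnesium transporter SLC41A1, the anion exchanger SLC26A6, SLC35A4 and SLC9A3R2, with slopes between 0.06 and 0.12. SLC35A3, which carries UDP-N-acetylglucosamine into the Golgi, SLC35F5 and SLC38A10 were the other lower members, with slopes of -0.12, -0.11 and -0.06.

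Some of these calls rested on few pigs. Without pig 72, which had the highest score, 10 members were called, and without pigs 36, 67 and 72, which most often held a member's highest or lowest value, 7 were: SLC25A12, SLC25A11, SLC25A4, SLC11A2, SLC35A4, SLC38A10 and SLC25A24. SLC27A1 then missed the threshold (limma adjusted p = 0.0551). For these and later counts with pigs left out, the share of all genes is not given. Whether members then exceeded other genes was not tested. Without pig 72 alone the slope of SLC41A1 was 0.06 (limma adjusted p = 0.409), and SLC25A46, SLC35F5 and SLC35A3 lost their calls. SLC35A3 lost its call on leaving out any 1 of 14 pigs, and SLC41A1 on leaving out any 1 of 8. SLC25A24 missed the threshold with all 6 main scores in 1 fit (limma adjusted p = 0.0552), and SLC25A3 without the 2 arrays farthest from the score median (slope of 0.05, limma adjusted p = 0.154).

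**Figure D3:**
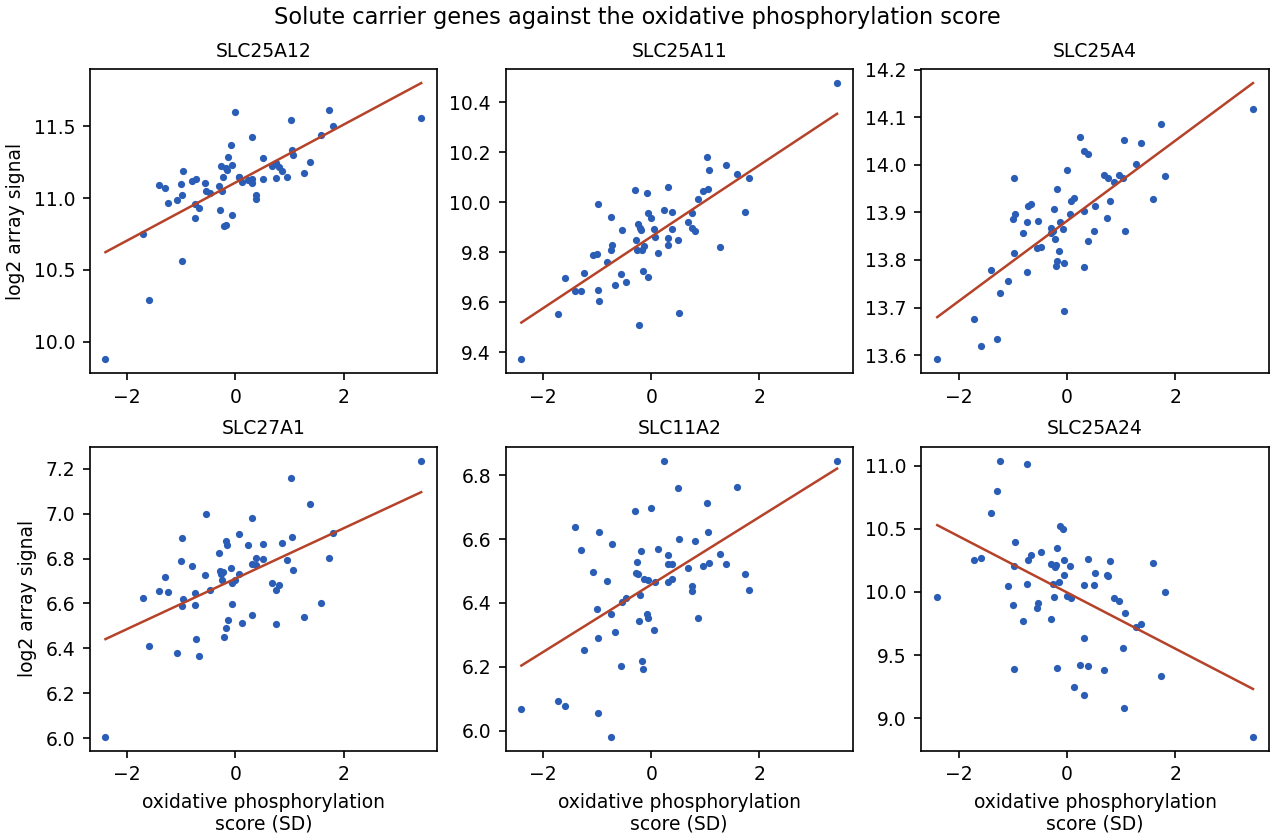
Log2 array signal (y axes) of 6 solute carriers against the oxidative phosphorylation score (x axes, SD units). Each point is 1 of 59 pigs and the red line is the limma slope. The slope is 0.20 for SLC25A12 and -0.22 for SLC25A24, and pig 72 stands alone at the right.

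The heat shock score, built from 19 chaperone genes, was followed by more members than any other of the 11 scores. The same ranking held for all genes tested. These were 13 with a positive slope and 14 with a negative one, together 38.6%. Of all genes tested 47.2% were called, 24.6% with a positive and 22.6% with a negative slope. The chaperone genes, whose products refold damaged proteins, had a mean level between 11.25 and 13.06 log2 across the pigs. HSPB6 did not rise with the rest of this list (r of -0.16).

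SLC25A21 was the member closest to the heat shock score, with a slope of 0.39 ± 0.04 log2 per SD (SE, limma adjusted p = 1.72e-12). SLC25A33 had a slope of 0.38 ± 0.08 (limma adjusted p = 4.51e-05), and SLC9A3R1 0.33 ± 0.06 (limma adjusted p = 1.78e-06). SLC7A1 had a slope of 0.32 ± 0.06 (limma adjusted p = 3.10e-05). Each of these 4 was higher in pigs with higher chaperone signals. They are among the 6 most variable members, but a slope in log2 grows with a gene's spread, so this overlap is no separate result. By correlation SLC31A1 (r of 0.62) lay closer to the score than SLC25A33 (0.54) or SLC7A1 (0.55). SLC25A5 had a slope of 0.20 ± 0.05 (limma adjusted p = 0.000382). SLC5A6, the transporter of biotin and pantothenate, ran from 6.64 to 8.26 with a median of 7.24, and its slope was 0.18 ± 0.04 (limma adjusted p = 9.56e-05). The other higher members had slopes between 0.06 and 0.17 and included SLC31A1, the potassium-chloride cotransporter SLC12A4, the zinc transporter SLC39A7 and the acetyl-CoA transporter SLC33A1.

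The glucose transporter SLC2A12, the lactate exporter SLC16A3 and SLC37A4 were lower in pigs with higher chaperone signals. SLC2A12 fell by 0.31 ± 0.04 log2 per SD of the heat shock score (limma adjusted p = 8.15e-08), and SLC16A3 fell by 0.21 ± 0.05 (limma adjusted p = 0.00142). SLC37A4 fell by 0.21 ± 0.04 (limma adjusted p = 3.06e-05), and a second probe set of that gene fell by 0.23 (limma adjusted p = 2.34e-06). SLC2A4RG, a regulator of the glucose transporter gene SLC2A4, fell by 0.15 ± 0.03 (limma adjusted p = 0.000245). SLC2A4 itself had a slope of -0.03 ± 0.02 and did not pass (limma adjusted p = 0.276). SLC2A1 and SLC2A8, of the same family, had slopes of 0.05 and -0.01 and did not pass (limma adjusted p = 0.152 and 0.632). Of the 4 tested sugar transporters of SLC2, SLC2A12 alone was called.

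Other members lower with the heat shock score included carriers of the mitochondrion and the Golgi. SLC35D2, a nucleotide sugar transporter, ran from 7.59 to 8.60 with a median of 8.27 and fell by 0.15 ± 0.02 (limma adjusted p = 2.26e-08). SLC25A30, a mitochondrial carrier, fell by 0.18 ± 0.04 (limma adjusted p = 0.000217). The rest, with slopes between -0.12 and -0.05, included SLC44A2, a choline transporter-like protein, SLC25A14, SLC25A12, the sulfate donor transporter SLC35B2 and the folate transporter SLC46A1. Without pigs 36, 67 and 72, 25 members followed the score, and 22 of these were among the 27. SLC33A1 and SLC25A12 were not among the 22, and without the 2 arrays farthest from the score median their slopes were 0.05 and -0.05 (limma adjusted p = 0.0879 and 0.181). SLC12A4 also missed the threshold there (limma adjusted p = 0.0736). With all 6 main scores in 1 fit the heat shock slope of SLC25A33 was 0.21, that of SLC25A5 0.10 and that of SLC25A30 -0.13, and none of these passed (limma adjusted p = 0.0825, 0.169 and 0.0622).

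**Figure D4:**
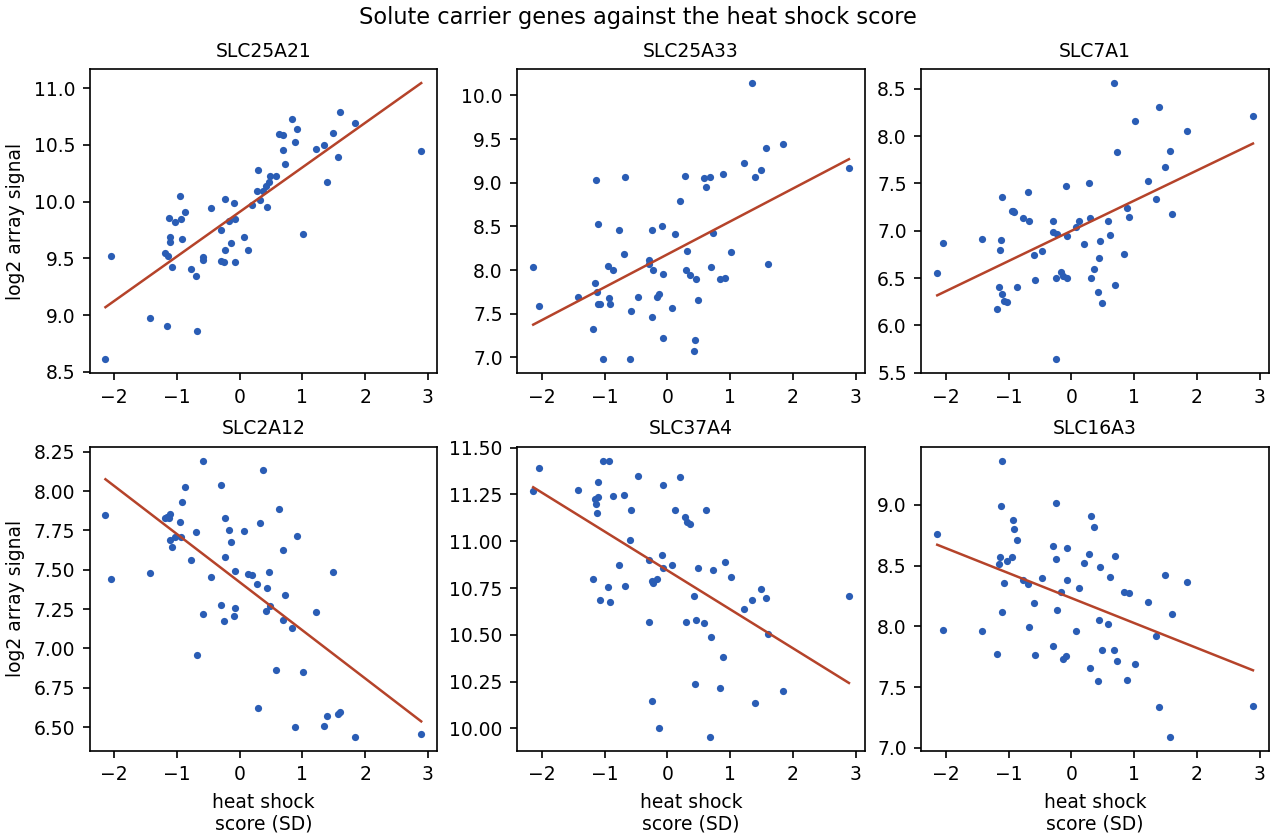
Log2 array signal (y axes) of 6 solute carriers against the heat shock score (x axes, SD units). Each point is 1 of 59 pigs and the red line is the limma slope, 0.39 for SLC25A21 and -0.31 for SLC2A12.

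The fast fibre score rested on 8 of 14 listed genes, as MYH1, MYH4, MYBPC2, ACTN3, CASQ1 and PVALB were not measured. The mean level of its genes lay between 14.04 and 14.40 log2, near the top of the deposited range. Farthest from its median were pigs 72 and 41, and pig 41 had the highest RNA control difference (4.10 log2, described below). With the fast fibre score 9 members were higher and 10 lower, together 27.1%. Of all genes tested 24.4% were called, 14.3% higher and 10.1% lower. SLC37A4 had a slope of 0.22 ± 0.04 log2 per SD (SE, limma adjusted p = 4.54e-05), and its second probe set 0.23 (limma adjusted p = 2.09e-05). SLC3A1 had a slope of 0.18 ± 0.05 (limma adjusted p = 0.00749), SLC2A12 0.16 ± 0.06 (limma adjusted p = 0.0278) and SLC35B1 0.08 ± 0.01 (limma adjusted p = 2.47e-05). SLC41A1 ran from 8.06 to 9.73 with a median of 8.66 and fell by 0.21 ± 0.03 per SD of the fast fibre score (limma adjusted p = 8.84e-06). SLC25A33 fell by 0.28 ± 0.08 (limma adjusted p = 0.0118). SLC25A6 fell by 0.09 ± 0.03 (limma adjusted p = 0.00954). SLC25A38, a glycine carrier for haem synthesis, fell by 0.09 ± 0.02 (limma adjusted p = 0.00279), and SLC29A1, a nucleoside transporter, fell by 0.08 ± 0.03 (limma adjusted p = 0.0254). SLC16A3 had a slope of 0.13 ± 0.06 and missed the threshold (limma adjusted p = 0.0891). Without pig 72, 11 members were called, and without pigs 36, 67 and 72, 9. SLC29A1 lost its call without pig 72 (slope of -0.05, limma adjusted p = 0.177) and SLC2A12 without pig 36 (limma adjusted p = 0.0516). Without the 2 arrays farthest from the score median SLC3A1 had a slope of 0.11 and missed the threshold (limma adjusted p = 0.127). With all 6 main scores in 1 fit SLC2A12, SLC25A33, SLC25A6 and SLC29A1 also missed it (limma adjusted p = 0.466, 0.234, 0.154 and 0.195).

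The slow fibre score rested on 9 of 11 listed genes, and TPM3 did not vary with the rest (r of -0.01). With the slow fibre score 3 members were called (4.29%, against 5.96% of all genes tested). SLC41A1 had a slope of 0.14 ± 0.04 log2 per SD (SE, limma adjusted p = 0.0215), SLC35F5 fell by 0.12 ± 0.03 (limma adjusted p = 0.00504) and SLC35B1 fell by 0.06 ± 0.02 (limma adjusted p = 0.0148). Without pig 72 limma called 0 members, with 7 at an unadjusted p under 0.05, and 5 members were called without pig 18 or without pig 26.

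The 3 ADP/ATP carriers had different called scores. SLC25A4 followed the oxidative phosphorylation score and had a slope of 0.01 ± 0.01 log2 per SD of the heat shock score (SE, limma adjusted p = 0.699). SLC25A5 followed the heat shock, immediate early and amino acid response scores. With all 6 main scores in 1 fit it kept none of these calls (limma adjusted p = 0.169, 0.386 and 0.322). Its slope on the oxidative phosphorylation score, 0.12 ± 0.05, missed the threshold (limma adjusted p = 0.15). That slope was larger than the one of SLC25A4 given above, with a larger SE. SLC25A6 was called on the fast fibre score alone among the 6 main scores. The differences between these slopes were not tested.

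**Figure D5:**
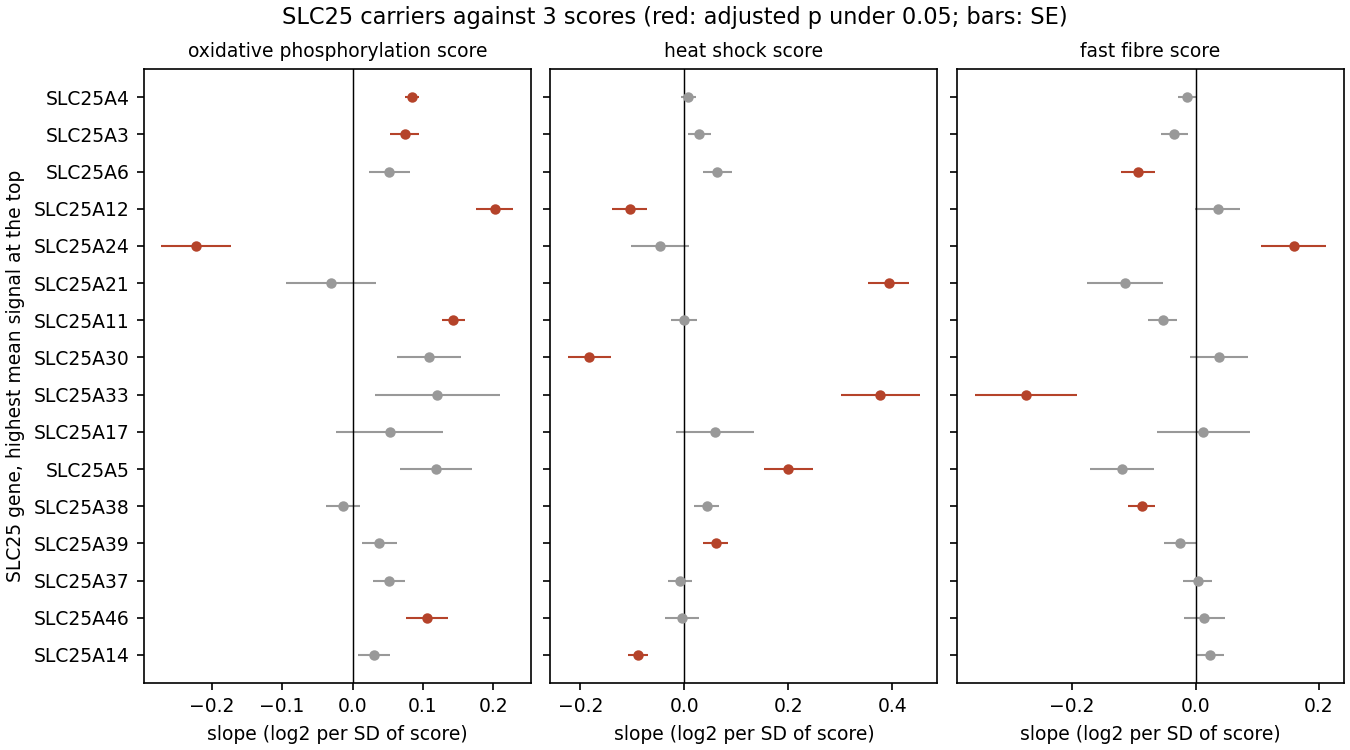
Slope (x axes, log2 per SD of score) of the 16 tested SLC25 genes (y axis, highest mean signal at the top) on 3 scores. Points are slopes and bars are SE, red where the limma adjusted p is under 0.05. SLC25A4, SLC25A12 and SLC25A11 are red on the oxidative phosphorylation score, and SLC25A21, SLC25A33 and SLC25A5 on the heat shock score.

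Immediate early genes, transcription factors induced within minutes of a stimulus, were followed by 6 members (8.57%, against 10.5% of all genes tested). Their score rested on 15 of 22 listed genes, and FOSL1 did not rise with the rest (r of -0.14). SLC25A33 had a slope of 0.30 ± 0.08 log2 per SD (SE, limma adjusted p = 0.0141) and SLC25A5 0.16 ± 0.05 (limma adjusted p = 0.0295). SLC35D2, SLC44A2, SLC25A14 and SLC35B1 fell by 0.09, 0.09, 0.07 and 0.05. A single member was called without pig 36 and 3 without pig 37, and limma called 0 without pigs 36, 67 and 72, with 11 at an unadjusted p under 0.05.

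The amino acid response list holds genes of serine synthesis, asparagine synthesis and tRNA charging that are induced when amino acids are short. Its 17 genes did not vary together (median pairwise r of 0.06), so its score describes no common response. With this score 8 members were called (11.4%, against 9.86% of all genes tested). SLC7A1, which is induced by amino acid shortage in rodents, had a slope of 0.22 ± 0.07 log2 per SD (SE, limma adjusted p = 0.0386), and SLC31A1 0.15 ± 0.03 (limma adjusted p = 0.0025). SLC9A3R1, SLC25A21, SLC25A5, SLC2A1 and SLC35A4 were also higher, and SLC35D2 was lower. Limma called 0 members where older names of list genes were left unmatched, with 10 at an unadjusted p under 0.05. The count was 4 without pig 5 and 5 without pig 58. SLC7A1 lost its call on leaving out any 1 of 8 pigs, SLC2A1 any 1 of 5 and SLC35D2 any 1 of 2. SLC31A1, SLC9A3R1, SLC25A21 and SLC25A5 kept theirs whichever single pig was left out. With all main scores in the same fit SLC7A1 and SLC31A1 missed the threshold (limma adjusted p = 0.4635 and 0.4182). SLC3A2, the heavy chain of several amino acid exchangers, had a slope of 0.04 ± 0.02 (limma adjusted p = 0.233), and the glutamine transporter SLC1A5 0.02 ± 0.02 (limma adjusted p = 0.669).

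Of the 70 tested members, 23 followed none of the 6 main scores. The share of all genes that followed none was not counted, so whether 23 is few or many was not tested. SLC2A4 ran from 6.999 to 7.78 log2 with a median of 7.27, and its slopes lay between -0.03 and 0.01. A second, dimmer probe set of SLC2A4 had a slope of -0.08 on the fast fibre score (limma adjusted p = 0.0306), so its 2 tested probe sets differed in that call. SLC6A8 ran from 9.47 to 10.53 with a median of 9.93 and its slopes lay between -0.05 and 0.02. SLC5A4, SLC39A14, a zinc and iron importer, and SLC38A9, an arginine sensor of the lysosome, were also among the 23.

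Markers of other cell types varied beside these genes. The adipocyte score rested on 6 of 10 measured markers, with a mean level between 8.72 and 9.65 log2 across the pigs, while ADIPOQ, RBP4, RETN and PPARG were below the filter. Its genes did not vary together (median pairwise r of 0.14), so the score is no clear measure of adipocyte content. It was followed by 10 members (14.3%, against 24.9% of all genes tested). SLC2A12 had a slope of 0.20 ± 0.05 log2 per SD of the adipocyte score (SE, limma adjusted p = 0.0061) and SLC37A4 0.14 ± 0.05 (limma adjusted p = 0.0197). SLC25A21 fell by 0.26 ± 0.05 (limma adjusted p = 0.000599) and SLC9A3R1 fell by 0.19 ± 0.07 (limma adjusted p = 0.0303). The part of the adipocyte markers in the heat shock slopes of these genes was not tested.

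The macrophage and leukocyte score rested on 10 of 13 measured markers, with a mean level between 6.08 and 8.05 log2 across the pigs, and 9 members followed it (12.9%, against 9.94% of all genes tested). SLC39A7 had a slope of 0.10 ± 0.02 (SE, limma adjusted p = 0.000266) and SLC1A5 0.08 ± 0.02 (limma adjusted p = 0.00247), while SLC3A2 fell by 0.07 ± 0.02 (limma adjusted p = 0.0179), a call lost without pigs 36, 67 and 72 (limma adjusted p = 0.0667). The endothelial score was followed by 3 members (4.29%, against 3.7% of all genes tested), among them SLC50A1, a sugar transporter, at 0.09 ± 0.02 (limma adjusted p = 0.00852). The red blood cell score was followed by 18 members (25.7%, against 25% of all genes tested) and the nerve and Schwann cell score by 3 (4.29%, against 0.792%). The last 2 scores rested on 3 genes each that, like the adipocyte markers, did not vary together, with median pairwise r of 0.14 and 0.06. These were HBB, EPB41 and BPGM for red blood cells, and MBP, S100B and UCHL1 for nerve. HBB did not vary with the rest of its list (r of -0.03). Neither score is a clear measure of its cell type. SLC25A33 fell by 0.31 ± 0.08 per SD of the red blood cell score (limma adjusted p = 0.00337).

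RNA quality was read from control probe sets for actin and elongation factor 1 alpha. The 3′ minus 5′ difference of these controls lay between 2.14 and 4.10 log2, with a median of 2.57. With this difference as a covariate, a setting chosen after seeing the data, 70 of 73 named slopes past the threshold kept their call.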

How the data were processed

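Muscle RNA of 59 pigs was measured on 1 array each. The deposited values are log2 signals per probe set made by the authors with GCRMA, per the submitters' processing notes. The log base and the GCRMA version are not given in the sources used here, and values of 2.39 to 15.04 were read as log2. GCRMA compresses differences of dim genes and of those near the upper limit. No count lies behind a value, and precision is limited by how many arrays there are.

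Of 24123 probe sets, 124 controls were left out, and the 12000 with a mean of at least 6.27 log2, the median, were tested. Symbols came from the platform annotation, with a single symbol on 10069 probe sets, more than 1 on 198 and no symbol on 13732. 5 probe sets that pair a solute carrier with another symbol were not used. The 117 members had 173 probe sets, and 39 members had more than 1. Solute carrier members and gene lists were chosen with earlier results of these data known.

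Each of 11 scores (6 main, 5 of other cell types) used its list's genes past the filter. 14 list genes were matched by hand under older symbols. Slopes were fitted with limma 3.58.1 (lmFit, eBayes with trend) in R 4.3.3, leaving out the list's own probe sets, with Benjamini-Hochberg adjustment and a threshold of 0.05. The fit was tested on simulated data. Python 3.11.15 with numpy 2.4.6, pandas 2.3.3 and matplotlib 3.10.9 was used otherwise.

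Named were the 12 brightest members, the 12 with the highest SD, up to 6 per direction and main score (3 for cell type scores) that held their sign and had an unadjusted p under 0.05 when the 2 arrays farthest from the score median were dropped, and a fixed list of muscle transporters. Members named beyond this to complete a list of calls were chosen after their values were seen. Alternatives changed the filter, the probe set choice, the centring, the arrays, the use of ranks and the other scores in the fit. Arrays without pigs 36, 67 and 72, the RNA control covariate and unmatched older symbols were added after seeing the data.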

Additional observations from a re-analysis of the deposited data

How the results depend on the processing

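Counts of members called kept within 1.5 times of the values in the report under 54 of 86 changes of setting, and among single named members 367 of 498 slopes kept their call, 131 lost it and 0 changed sign. Leaving out the 2 arrays farthest from the score median is not in that count, since it took part in choosing the named members, and under it 26 of 73 lost their call. Heat shock (27 members) and red blood cell (18) counts stayed within 1.5 times under every setting run. Averaging all of a gene's probe sets, 5 members followed the slow fibre score (3 in the report), 3 the immediate early (6), 14 the amino acid response (8), 1 the endothelial (3) and 0 the nerve score (3). Without the 2 arrays farthest from the score median the counts were 0 for slow fibre, 7 for oxidative phosphorylation (16), 1 for immediate early, 4 for macrophage and leukocyte (9), 0 for endothelial and 0 for nerve. With ranks they were 1 for slow fibre, 12 for fast fibre (19), 9 for oxidative phosphorylation, 0 for immediate early, 1 for endothelial and 0 for nerve. With all 6 main scores in 1 fit they were 0 for slow fibre, 7 for fast fibre, 0 for immediate early and 0 for amino acid response. Without pigs 36, 67 and 72 they were 0, 9, 7 and 0 for slow fibre, fast fibre, oxidative phosphorylation and immediate early, 5 for macrophage and leukocyte and 1 for endothelial. With no filter they were 0 for amino acid response, 4 for adipocyte (10) and 0 for nerve. With the RNA control covariate 5 followed slow fibre, and with older symbols unmatched 0 followed amino acid response. Where limma called 0 members, between 5 and 19 had an unadjusted p under 0.05. The cause was not tested. The median SD of tested members was 0.198 with arrays centred on their medians and 0.185 with the mean of probe sets. No paired analysis was possible because all pigs form 1 group. SLC25A33 and SLC11A2 each rest on 1 bright probe set, their other probe sets being below the filter.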
